A study of Macaca fascicularis with 6 samples.

Results

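CLDN1, CLDN4, CLDN7, OCLN, F11R and TJP1 encode proteins of the tight junction, and these 6 of the 14623 genes in the tables were followed in corneal epithelial cells of the cynomolgus monkey (Macaca fascicularis) before and after wounding. They were taken as a named list under a rule that sets no threshold on their values, and all 6 had counts in all 6 libraries. The animals were wild type. Corneas were uninjured (day 0), or were taken at day 1 or day 3 of healing after a corneal injury, and each of these 3 groups had 2 libraries. Cells were captured on the Chromium system of 10x Genomics, and HIT-scISOseq, which reads whole cDNA molecules, gave isoforms. The kind of injury, and whether the libraries of a group came from different animals, was not given in the sources used here. All p-values therefore rest on the spread between 2 libraries of a group, which may be technical.

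Tight junctions seal the gap between neighbouring epithelial cells. Claudins form the strands that run along the contact and set what can pass between cells, occludin (OCLN) joins these strands, and F11R, or junctional adhesion molecule A, is an adhesion molecule of the same contact. TJP1, or ZO-1, is the scaffold beneath the membrane that ties claudins, occludin and F11R to actin. In the cornea the barrier lies in the outermost layer of a stratified epithelium, which is renewed from limbal and basal cells and has to close again over a wound.

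The libraries held 7895 cell barcodes and 3733442 to 4928103 counts each. The median count per barcode was 2462 and 3023 in the uninjured libraries, 3258 and 2931 at day 1 and 4447 and 4145 at day 3, and 8 barcodes occurred in more than 1 library. Markers of differentiated corneal epithelium, such as KRT12 and KRT3, had counts for 9 of 10 genes and summed to between 31230.1 and 37480.3 CPM, the counts scaled to a common total. Immune markers (8 of 9 with a count) summed to between 129.9 and 249 CPM. Other marker sums moved between days. The 12 basal cell markers summed to 14680.4 and 14023 CPM uninjured, 8697 and 8765 CPM at day 1 and 39352 and 37764 CPM at day 3. The 8 of 13 conjunctival markers matched by symbol (not KRT13 or MUC5AC) summed to 9450.1 and 9853, then 15893 and 12713, then 23685 and 24069 CPM, and the 9 wound and mesenchymal markers, such as FN1 and VIM, to 66.2 and 65.3, then 618 and 622, then 1788 and 1688 CPM. The 5 of 7 limbal markers summed to 433 and 424, then 116 and 109, then 108 and 113 CPM, the 8 of 14 superficial cell markers to 466 and 504, then 409 and 375, then 2074 and 2158 CPM, and the 7 of 8 keratocyte markers to 541 and 417, then 205 and 189, then 789 and 780.3 CPM. The share of mitochondrial counts was 9.12% and 9.32%, then 7.23% and 7.28%, then 4.52% and 4.39%. The part of these shifts in the changes of whole libraries given next was not tested, and changes within cell classes follow further on.

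All 6 genes rose at day 1, and all 6 were lower at day 3 than at day 1. Many other genes also moved: 62.2% of the 12294 genes tested differed between day 1 and uninjured, 30.5% being higher and 31.7% lower. At day 3, TJP1 was still above uninjured, CLDN1 and F11R were below it, and CLDN4, CLDN7 and OCLN did not pass the test. Values of whole libraries are sums over all cells in CPM, where fewer cells of a type and less RNA per cell cannot be told apart. Each adjusted p is from edgeR's quasi-likelihood test with Benjamini-Hochberg adjustment over all genes tested, and each fold change is the fitted log2 difference with its SE.

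CLDN7 had the largest fitted rise at day 1 of the 6 genes. It measured 294 and 309 CPM in the uninjured libraries, 1026 and 1102 CPM at day 1 and 338 and 301 CPM at day 3. Both day 1 libraries stood far above the other 4, and the day 3 libraries overlapped the uninjured ones. The rise was 3.53-fold (log2 1.82 ± 0.088, adjusted p = 1.37e-08), day 3 lay 3.33-fold below day 1 (log2 -1.74 ± 0.088, adjusted p = 4.00e-08), and day 3 differed from uninjured by log2 0.085 ± 0.087 (adjusted p = 0.43).

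CLDN1, a claudin that the barrier of the skin depends on, was nearly equal in the 2 libraries of each group. It measured 409 and 416 CPM uninjured, 762 and 759.99 CPM at day 1 and 337 and 338 CPM at day 3. No groups overlapped, with day 1 highest and day 3 lowest. The rise at day 1 was 1.84-fold (log2 0.88 ± 0.074, adjusted p = 1.16e-06), and day 3 lay 1.22-fold below uninjured (log2 -0.29 ± 0.075, adjusted p = 0.0062). Without day 3 replicate 1 that last difference had an adjusted p of 0.0504, in a range of 6.37e-06 to 0.0504 over 14 alternatives.

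CLDN4, a claudin of many epithelia, differed more between replicates. It measured 709 and 858 CPM uninjured, 1207 and 1511 CPM at day 1 and 694 and 634 CPM at day 3. Both day 1 libraries were above all others, and both day 3 libraries lay below both uninjured ones. The rise was 1.73-fold (log2 0.79 ± 0.12, adjusted p = 0.00013), while the difference between day 3 and uninjured did not pass the test (log2 -0.24 ± 0.12, adjusted p = 0.11). That difference did pass in 3 of 14 alternatives, among them the fits without day 1 replicate 1 or 2. These libraries are in neither group of the comparison. They enter it through what the fit shares: the estimate of spread, the scaling, the filter and the adjustment over genes.

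OCLN rose at day 1 and was back in the uninjured range at day 3. It measured 32.5 and 33.0 CPM uninjured, 94.1 and 110.4 CPM at day 1 and 33.6 and 30.2 CPM at day 3. Day 1 stood apart, and the other groups overlapped. The rise was 3.11-fold (log2 1.64 ± 0.10, adjusted p = 1.13e-07), and day 3 differed from uninjured by log2 -0.036 ± 0.12 (adjusted p = 0.83).

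F11R had the smallest step at day 1 of the 6 genes. It measured 47.2 and 53.0 CPM uninjured, 63.0 and 78.5 CPM at day 1 and 41.2 and 35.8 CPM at day 3. No groups overlapped, but the day 1 libraries differed from each other by more than the uninjured ones did. The rise was 1.398-fold (log2 0.48 ± 0.12, adjusted p = 0.0037), and day 3 lay 1.302-fold below uninjured (log2 -0.38 ± 0.13, adjusted p = 0.025). Neither call held with DESeq2 (adjusted p = 0.084 and 0.29), and with each cell weighted equally the day 1 difference was log2 -0.026. The adjusted p ranged from 0.00020 to 0.32 over 14 alternatives at day 1 and from 0.00023 to 0.29 over 14 alternatives at day 3, where it was 0.18 without uninjured replicate 2 and 0.16 without day 3 replicate 2.

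TJP1, the scaffold, kept part of its rise. It measured 81.5 and 84.9 CPM uninjured, 188 and 177 CPM at day 1 and 124 and 118 CPM at day 3. The groups were separate, with day 3 between the other two. The rise at day 1 was 2.19-fold (log2 1.13 ± 0.077, adjusted p = 2.00e-07), and day 3 was 1.45-fold above uninjured (log2 0.54 ± 0.079, adjusted p = 0.00014). Between day 3 and uninjured 55.2% of all genes passed the test, 28.8% higher and 26.4% lower, beside 1 higher and 2 lower of the 6. Between day 3 and day 1 59.3% passed, 30.5% higher and 28.8% lower, beside 6 lower of the 6.

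**Figure D1:**
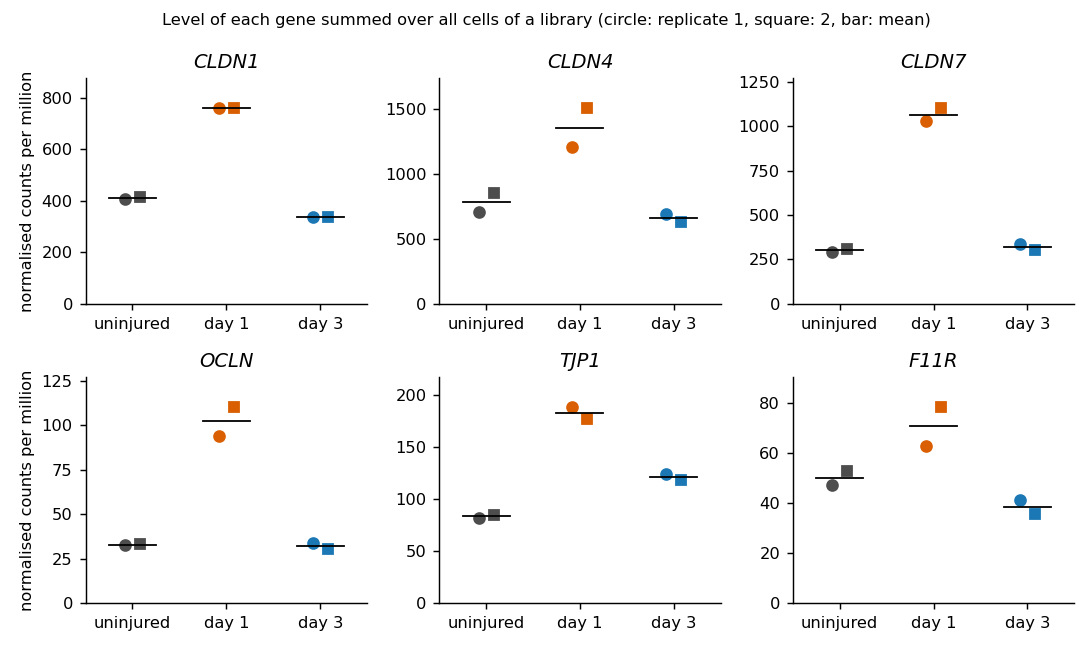
Each panel plots 1 gene in CPM (y axis, from 0) in the libraries of each group (x axis), with circles for replicate 1, squares for replicate 2 and a bar at the mean. Day 1 is the highest group in all 6 panels, and TJP1 at day 3 (124 and 118 CPM) lies above the uninjured libraries.

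The direction at day 3 depended on how libraries were scaled. With library totals alone, the median change of all genes moved from log2 -0.035 to -0.46 at day 3 and from -0.057 to -0.40 at day 1. Under that scaling CLDN7 turned to -0.34 and TJP1 lost its call (log2 0.12, adjusted p = 0.21, in a range of 5.95e-06 to 0.21 over 14 alternatives). Set against the median gene, a shift of scaling common to all genes cancels, so agreement there is built in and is no check. Relative to that gene, TJP1 at day 3 was at 0.57 with either scaling, CLDN7 at 0.12 and CLDN4 at -0.21 to -0.20. CLDN1 was at -0.26 and F11R at -0.35. At day 1, 5 of the 6 genes were called higher with both scalings and with DESeq2, and F11R was called with TMM scaling only (log2 0.15 with library totals alone, adjusted p = 0.32).

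Beyond these 6 genes, 5 lists held 81 further junction genes, of which 52 could be tested. At day 1, 26 rose and 13 fell, beside 30.5% and 31.7% of all genes tested, with a median of log2 0.44 beside -0.057 for all genes. At day 3, 17 were above and 12 below uninjured, shares near the 28.8% and 26.4% of all genes, with a median of 0.021 beside -0.035. With library totals alone the lower counts were 20 at day 1 and 26 at day 3, and the higher counts 25 and 11. The median of all genes was then log2 -0.40 at day 1 and -0.46 at day 3.

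Of 12 tested genes for strand and membrane proteins, 6 rose and 2 fell at day 1, where 30.5% of all genes rose and 31.7% fell. LSR, which marks contacts between 3 cells, measured 68.7 and 70.8 CPM uninjured, 192 and 193 CPM at day 1 and 97.4 and 90.0 CPM at day 3 (log2 1.46 and 0.43). MARVELD2, or tricellulin, a relative of occludin at those contacts, measured 19.5 and 19.0, then 39.0 and 44.1, then 19.6 and 18.6 CPM (log2 1.103 at day 1). Both rose at day 1, and at day 3 LSR was called above uninjured, by about the size of the shift between scalings given above, while MARVELD2 was not called. CLDND1 (log2 1.153) and CLDN3 (0.74) also rose at day 1, while CLDN15 did not pass the test (-0.38). CLDN16 was called higher at few counts, 19 and 13 uninjured and 23 and 24 at day 1 (log2 0.95, edgeR adjusted p = 0.046).

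CLDN10 followed another course, at few counts before day 3. It measured 0 and 1.74 CPM uninjured, 1.54 and 0 CPM at day 1 and 28.3 and 22.3 CPM at day 3 (fitted log2 4.73 against uninjured, adjusted p = 1.05e-05), so the day 3 libraries stood apart. CXADR, an adhesion molecule of the immunoglobulin family like F11R, was below uninjured at day 3 (221 and 219 against 119 and 112 CPM, log2 -0.93), as were BVES (-0.85) and MARVELD3 (-0.81). CLDN2, CLDN8, CLDN12 and CLDN19 had too few counts to test, and CLDN5 and CGN, which were not matched by symbol, were not analysed here.

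Genes of the plaque beneath the membrane, where TJP1 lies, went both ways at day 1: 8 of 17 rose and 6 fell, the latter a share near the 31.7% of all genes that fell (30.5% rose). ARHGEF2, an exchange factor for RhoA that junctions hold, rose from 6.77 and 6.63 to 45.0 and 50.2 CPM (log2 2.82) and was at 7.83 and 9.32 CPM at day 3. AMOTL1 rose (log2 1.404) while its relative AMOT fell (-2.93). CGNL1, or paracingulin, had 5 and 6 counts uninjured, none in either day 1 library and 27 and 34 at day 3. A floor of 3 counts over the day 1 group puts it 2.77-fold below uninjured. That fold leaves out the counting error of the few uninjured counts. At day 3, 3 of 17 were above uninjured, among them CGNL1 (log2 2.79, at few counts) and RAB13 (0.85). Below uninjured were 3, among them MAGI3 (-1.17) and AMOT (-2.35). Both are smaller shares than the 28.8% and 26.4% of all genes.

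Among partners of claudins and proteases that act on them, 4 of 7 rose at day 1 and 1 fell, against 30.5% and 31.7% of all genes. ST14, the membrane protease matriptase, measured 68.7 and 73.4 CPM uninjured, 353 and 389.8 CPM at day 1 and 164 and 149 CPM at day 3 (log2 2.38 and 1.14 against uninjured). The ST14 groups did not overlap, with day 1 highest and uninjured lowest. EPCAM was called higher at few counts, 17 and 19 uninjured and 47 and 23 at day 1 (log2 1.34). The protease gene TMPRSS11E was above uninjured at both days (log2 1.151 and 2.25). Of 8 tested adherens junction genes, 6 rose at day 1 and none fell (all genes: 30.5% and 31.7%), led by NECTIN2 (log2 1.78), NECTIN1 (1.07), CDH3 (0.99) and CDH1 (0.71), and 6 were above uninjured at day 3 (all genes: 28.8%), among them JUP (1.07), or plakoglobin.

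Of 8 tested transcription factors known to act on junction genes, 2 rose and 4 fell at day 1, where 30.5% of all genes rose and 31.7% fell. GRHL3 (log2 1.60) and GRHL1 (1.06), grainyhead factors of epithelial barriers, were those that rose. GRHL2, of the same family, was among those that fell, from 54.6 and 54.6 to 25.8 and 33.0 CPM (log2 -0.91). SNAI2, known as a repressor of epithelial genes, measured 74.3 and 69.2 CPM uninjured, 36.4 and 33.0 CPM at day 1 and 131 and 130.2 CPM at day 3 (log2 -1.04 and 0.87 against uninjured). Its groups did not overlap, with day 1 lowest. SNAI1 was below uninjured on both days (log2 -1.27 and -1.16), and so was KLF4 (-0.42 and -1.06).

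Shares of cells with a count were compared after each cell was thinned to 1000 counts, which left out 5 to 125 cells of a library. CLDN7 was counted in 21.0% and 21.0% of uninjured cells, 46.7% and 50.5% at day 1 and 21.5% and 18.3% at day 3. CLDN4 was counted in 40.3% and 45.4%, then 50.7% and 57.4%, then 37.0% and 35.4% of cells, and CLDN1 in 33.1% and 32.9%, then 38.7% and 38.6%, then 22.4% and 20.04%. Day 1 was the highest group for each claudin, and at day 3 CLDN1 and CLDN4 lay below uninjured while CLDN7 overlapped it. With 2000 counts per cell, which left out more cells, day 1 overlapped uninjured for CLDN1 (56.1% and 54.1%, then 55.8% and 55.8%). Day 1 then also overlapped uninjured for CLDN4 (67.6% and 71.1%, then 69.3% and 76.7%), but not for CLDN7.

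OCLN was counted in 3.23% and 2.82% of thinned uninjured cells, 8.64% and 9.89% at day 1 and 2.03% and 1.69% at day 3. TJP1 was counted in 7.997% and 7.42%, then 14.7% and 14.6%, then 9.41% and 9.60%. F11R was counted in 5.91% and 6.90%, then 4.85% and 6.57%, then 3.51% and 2.82%, so that day 1 overlapped uninjured. TJP1 alone lay above uninjured in both libraries at day 3, and with 500 counts per cell it overlapped. With 2 libraries against 2 an exact permutation test cannot give a p below 0.333, and no test of shares was made.

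Thinned shares were also taken in a cluster low in the gene (clusters are described below). CLDN7 was counted in 1.86% and 1.12% of uninjured SPARC/COL7A1-led cells, which had median depths of 2800 and 2966 counts. OCLN was counted in 0.174% and 0.630% of uninjured GPHA2/KRT14-led cells, at median depths of 1526 and 1771. These clusters are part of the uninjured libraries and may express the gene, so their shares do not measure background. They are also not the lowest of all clusters on all days. F11R was counted in 2.00% and 1.57% of day 3 CXCL14/COL17A1-led cells. Without thinning, the deeper day 3 cells gave another order: CLDN4 was then counted in 68.3% and 66.6% of day 3 cells against 55.8% and 64.4% of uninjured cells, and CLDN7 in 50.1% and 46.4% against 36.3% and 41.8%. At least 3 of the 6 genes were found together in 10.6% and 10.2% of thinned uninjured cells, 26.4% and 31.0% at day 1 and 6.37% and 4.33% at day 3, and none of them in 33.2% and 30.3%, then 24.1% and 20.3%, then 37.0% and 41.0%.

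**Figure D2:**
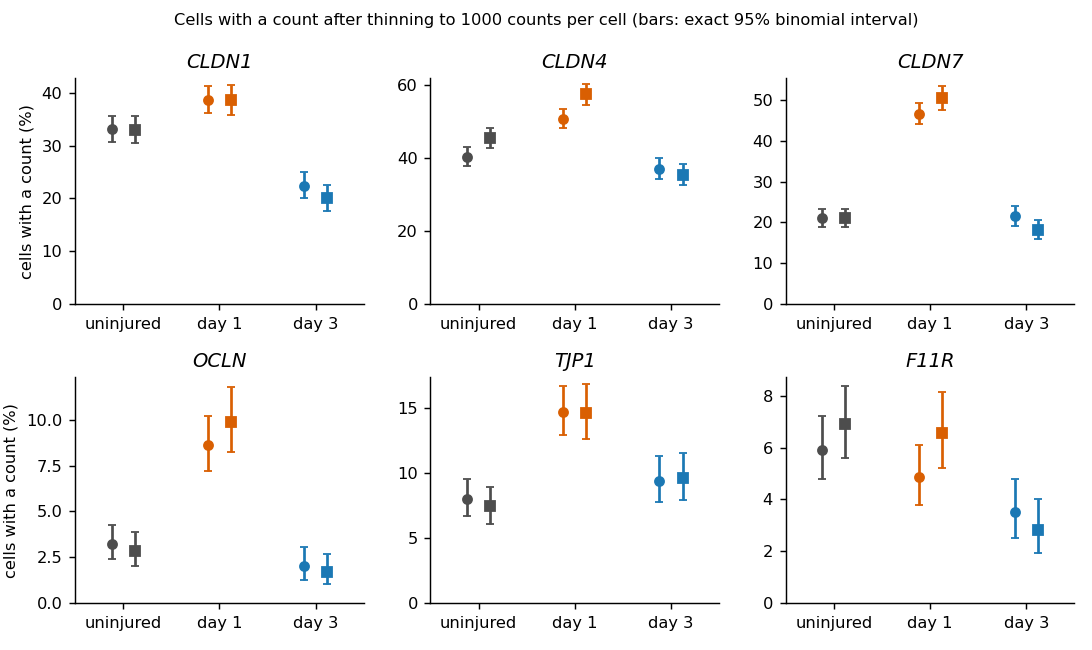
Each panel plots, for 1 gene, the percent of cells with a count (y axis, from 0, scaled per panel) in the libraries of each group (x axis) after thinning to 1000 counts per cell, with circles for replicate 1, squares for replicate 2 and bars for the exact (Clopper-Pearson) 95% binomial interval, which covers counting error only. CLDN7 goes from 21.0% and 21.0% to 46.7% and 50.5% and back, while F11R overlaps between uninjured and day 1.

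Cells of each day were clustered without the junction genes, which gave 18 clusters over the 3 days, named here by leading genes. Levels are CPM of a cluster's own counts in each library and are descriptions with no test. In the uninjured cornea CLDN7 measured 962 and 840.1 CPM in KRT24-led cells, 487 and 483 CPM in cells led by KRT4 and KRT19, keratins known from conjunctiva, and 474 and 445 CPM in cells led by the corneal keratins KRT12 and KRT3. It was at 36.0 and 62.8 CPM in cells led by GPHA2, a known limbal stem cell marker, and KRT14, and at 22.5 and 38.1 CPM in cells led by SPARC and the basement membrane collagen gene COL7A1. The last 2 clusters overlapped, and the mean of the highest cluster was 29.7 times that of the lowest.

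CLDN4, OCLN and TJP1 had the same highest cluster. CLDN4 was at 1823 and 1764 CPM in uninjured KRT24-led cells and 247 and 320.4 CPM in SPARC/COL7A1-led cells, the lowest mean, which overlapped GPHA2/KRT14-led cells. OCLN was at 83.6 and 83.8 CPM in KRT24-led cells and 5.68 and 5.06 CPM in GPHA2/KRT14-led cells. TJP1 was at 199.8 and 163 CPM against 39.8 and 43.5 CPM in the same 2 clusters. A TOP2A-led cluster of 25 dividing cells, too few to place, had no OCLN count.

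CLDN1 was laid out differently. In SPARC/COL7A1-led cells, the lowest for CLDN7, it measured 731 and 727 CPM, between the 811 and 780.2 CPM of KRT24-led cells and the 664 and 695 CPM of KRT12/KRT3-led cells. It was at 255 and 251 CPM in KRT4/KRT19-led cells and 178 and 190.3 CPM in GPHA2/KRT14-led cells. No neighbours among these 5 clusters overlapped, and the mean of the highest cluster was 4.32 times that of the lowest. F11R differed little between these 5 clusters: 74.3 and 58.2 CPM in KRT24-led, 50.2 and 79.0 CPM in GPHA2/KRT14-led, 55.5 and 65.5 CPM in KRT12/KRT3-led, 57.8 and 57.2 CPM in SPARC/COL7A1-led and 55.3 and 56.0 CPM in KRT4/KRT19-led cells. Each of the first 3 overlapped the next, and the last 2 did not overlap.

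On day 1 the KRT24-led cells had the highest mean for all 6 genes, though F11R overlapped KRT4/KRT19-led cells. CLDN1 measured 1537 and 1476 CPM there, CLDN4 2092 and 2422 CPM and CLDN7 1674 and 1889.7 CPM. Cells led by MMP1, a secreted collagenase gene, and KRT14 had the lowest mean for all 6, with CLDN1 at 76.7 and 99.4 CPM, CLDN7 at 119 and 133 CPM and OCLN at 16.5 and 21.9 CPM. CLDN4 and F11R overlapped there with CXCL14/SPARC-led cells.

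On day 3 the highest cluster was no longer one for all claudins. KRT78/KRT24-led cells were highest for CLDN7 (748 and 689 CPM), VMO1/PIP-led cells for CLDN4 (1290.4 and 1205 CPM) and KRT12/KRT3-led cells for CLDN1 (499 and 566 CPM). Cells led by the matrix genes FN1 and COL1A1 had the lowest means for CLDN1 (98.5 and 87.3 CPM), CLDN4 (159.6 and 119 CPM), CLDN7 (10.2 and 15.9 CPM) and TJP1 (34.0 and 59.5 CPM), the last 2 overlapping their neighbours in the order.

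**Figure D3:**
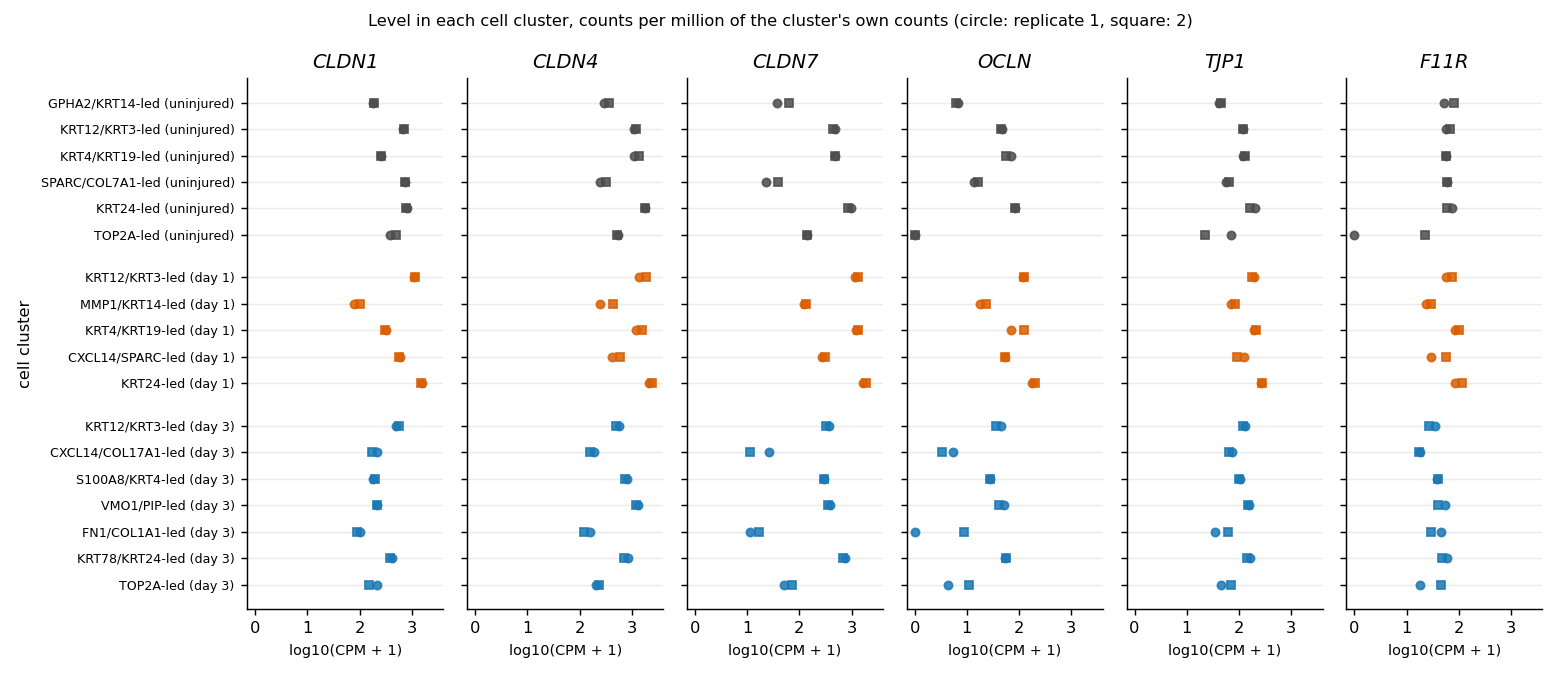
Rows are the 18 cell clusters, grouped by day and named by leading genes, and each panel plots 1 gene as log10 of CPM plus 1 (x axis) in replicate 1 (circle) and replicate 2 (square). CLDN7 spans from 22.5 and 38.1 CPM in SPARC/COL7A1-led to 962 and 840.1 CPM in KRT24-led uninjured cells, while F11R in the 5 larger uninjured clusters lies between 50.2 and 79.0 CPM.

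CLDN3 and CLDN10 had places of their own. CLDN3 was at 125 and 108 CPM in uninjured KRT4/KRT19-led cells against 2.38 and 3.52 CPM in KRT12/KRT3-led cells, and at 134 and 201 against 1.93 and 4.87 CPM at day 1. CLDN10 was at 165 and 127 CPM in day 3 VMO1/PIP-led cells and at 26.1 and 15.004 CPM in S100A8/KRT4-led cells. It was 1 of the 10 leading genes of the VMO1/PIP-led cells, although it was not used to draw the clusters.

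Changes between days were then tested within 4 classes that had at least 50 cells in every library: KRT12/KRT3-led, KRT24-led, KRT4/KRT19-led and SPARC/COL7A1-led cells. Left out were GPHA2/KRT14-led cells, 41.0% and 37.2% of cells in the uninjured libraries. MMP1/KRT14-led cells, 25.6% and 25.3% of day 1 cells, were also left out, as were FN1/COL1A1-led and TOP2A-led cells. The clusters matched to a class were not the same at every day. At day 3 the KRT4/KRT19-led class was made of S100A8/KRT4-led and VMO1/PIP-led cells. KRT4 was low in the latter, at 728 and 673 CPM against 3011 and 3864 CPM in S100A8/KRT4-led cells. AQP5, a leading gene of KRT4/KRT19-led cells on the other days, was at 2912 and 1728 against 2287 and 2086 CPM. The KRT24-led class was then made of KRT78/KRT24-led cells. The SPARC/COL7A1-led class was made of CXCL14/SPARC-led cells at day 1 and CXCL14/COL17A1-led cells at day 3. At day 1 all 6 genes rose in the KRT24-led class, where 21.4% of all genes tested rose, and in the KRT4/KRT19-led class, where 25.3% rose. In the KRT12/KRT3-led class 5 rose beside 26% of all genes, and in the SPARC/COL7A1-led class 4 rose beside 16.5%. At day 3 all 6 were lower than at day 1 in each class, beside 23.2% of all genes in KRT12/KRT3-led, 18.2% in KRT24-led, 23.1% in KRT4/KRT19-led and 18.6% in SPARC/COL7A1-led cells. Some of these falls lost their call without 1 library. In the SPARC/COL7A1-led class the fall of TJP1 had an adjusted p of 0.55 with day 1 replicate 1 left out, and of 0.0552 and 0.17 with the first or second day 3 library left out. F11R there had 0.34 when day 1 replicate 2 was dropped. The fall of TJP1 in the KRT12/KRT3-led class had 0.12 without the first day 1 library and 0.13 without the second day 3 library. Dropping the second day 1 or the second day 3 library gave 0.18 and 0.18 for F11R in the KRT24-led class, and 0.0535 and 0.069 for CLDN4 in the KRT4/KRT19-led class.

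The largest fitted rise of CLDN7 was in the SPARC/COL7A1-led class, where its uninjured level was the lowest of the 4 classes. Scaled within the class it measured 21.8 and 36.7 CPM uninjured, 267 and 298 CPM at day 1 and 28.0 and 11.8 CPM at day 3. Day 1 stood apart and the other groups overlapped. The rise was 9.64-fold (log2 3.27 ± 0.22, adjusted p = 2.29e-24), against 3.101-fold (log2 1.63 ± 0.10, adjusted p = 1.92e-12) in the KRT12/KRT3-led class, where CLDN7 went from 416 and 388 to 1185 and 1309 CPM. The 2 log2 changes differed by 1.68 ± 0.26 (adjusted p = 4.35e-07, edgeR interaction test, which 2.77% of genes passed).

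Keratins that mark other classes went different ways in these cells at day 1. KRT24 was at 6.42 and 17.3 CPM in uninjured SPARC/COL7A1-led cells and 534 and 569 CPM in those of day 1, when KRT24-led cells had 11889 and 12040.4 CPM. It was also higher at day 1 in KRT12/KRT3-led cells (191 and 204, then 3203 and 3085 CPM). In the SPARC/COL7A1-led class KRT3 was at 548 and 792 and then 1019 and 1261 CPM, while KRT12 was lower at day 1, at 16995 and 18342 and then 14811 and 15745 CPM. KRT4 was at 9.64 and 6.93 and then 13.2 and 2.03 CPM, so the groups overlapped, when KRT4/KRT19-led cells of day 1 had 3392 and 3444 CPM. These levels are descriptions with no test. The part of RNA from other cells in the CLDN7 rise was not tested.

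CLDN1 took another course in the same cells. In the SPARC/COL7A1-led class it measured 709 and 701 CPM uninjured, 588 and 547 CPM at day 1 and 238 and 191 CPM at day 3. The groups were separate, with day 3 lowest. The day 1 difference (log2 -0.31 ± 0.13, adjusted p = 0.057) did not pass the test, while it did with library totals alone and without doublet calls (adjusted p = 0.023 and 0.036, in a range of 0.023 to 0.27 over 11 alternatives). Day 3 was 3.28-fold below uninjured (log2 -1.71 ± 0.14, adjusted p = 1.66e-19).

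In KRT12/KRT3-led cells CLDN1 instead measured 582 and 607 CPM uninjured, 1119.9 and 1159 CPM at day 1 and 579 and 655 CPM at day 3. It rose at day 1 (log2 0.94 ± 0.095, adjusted p = 1.30e-08) and was not called at day 3 (log2 0.052 ± 0.097, adjusted p = 0.70). The log2 change in SPARC/COL7A1-led cells minus that in KRT12/KRT3-led cells was -1.21 ± 0.12 at day 1 (adjusted p = 6.28e-15, edgeR interaction test) and -1.74 ± 0.13 at day 3 (adjusted p = 1.75e-22, with 8.84% of genes passing).

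The other genes in the SPARC/COL7A1-led class rose at day 1 apart from F11R. OCLN measured 12.5 and 15.03, then 53.0 and 52.1, then 5.09 and 2.62 CPM (log2 1.92 ± 0.38 at day 1, adjusted p = 2.48e-05). CLDN4 measured 240.1 and 309, then 412 and 587, then 216 and 181 CPM (log2 0.86 ± 0.15 at day 1, adjusted p = 1.42e-06). For both, day 1 was highest and day 3 lowest, with no overlap, but OCLN was at few counts. The class held 4.91% and 4.76% of the 163 and 189 OCLN counts of the uninjured libraries. At day 3 it held 2.74% and 1.63% of 146 and 123 counts.

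TJP1 in this class measured 53.0 and 61.8, then 126 and 90.1, then 80.1 and 72.0 CPM (log2 0.93 ± 0.22 at day 1, adjusted p = 0.00052, but 0.091 without day 1 replicate 1, in a range of 6.60e-05 to 0.091 over 11 alternatives). F11R measured 56.1 and 55.1, then 28.1 and 54.1, then 19.1 and 18.3 CPM, below uninjured at day 3 (log2 -1.56 ± 0.32, adjusted p = 3.88e-05). In all, CLDN1, CLDN4, OCLN and F11R were below uninjured at day 3 in this class, 4 of 6 beside 16.2% of all genes. The calls of CLDN4 and OCLN were lost without uninjured replicate 2 (adjusted p = 0.36 and 0.11) and without day 3 replicate 2 (0.25 and 0.16), in ranges of 0.00025 to 0.36 over 11 alternatives and 0.0076 to 0.16 over 11 alternatives.

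In the KRT24-led class CLDN1 measured 698 and 676 CPM uninjured, 1639 and 1519 CPM at day 1 and 491 and 453 CPM at day 3. CLDN4 measured 1569.8 and 1529, then 2231 and 2493, then 1010.5 and 851 CPM. For both, day 1 was highest and day 3 lowest, and they were the 2 of 6 called below uninjured at day 3 (log2 -0.54 ± 0.14, adjusted p = 0.0018, and log2 -0.73 ± 0.13, adjusted p = 1.60e-05), beside 14.9% of all genes. CLDN7 measured 828 and 728, then 1785 and 1945, then 907 and 825 CPM, not called at day 3 (adjusted p = 0.37). The scaffold TJP1 measured 172 and 141, then 286 and 277, then 192 and 173 CPM and OCLN 72.0 and 72.7, then 190.1 and 204, then 63.2 and 67.1 CPM, with day 1 apart from the rest for both. F11R measured 64.0 and 50.4, then 90.6 and 118, then 71.3 and 55.1 CPM, and its call at day 1 (log2 0.87 ± 0.24, adjusted p = 0.0038) was lost without uninjured replicate 2 (0.082) and with library totals alone (0.0526), in a range of 0.00096 to 0.082 over 10 alternatives. Against KRT12/KRT3-led cells, the CLDN1 change at day 3 differed by -0.55 ± 0.13 (adjusted p = 0.0031, with 4.63% of genes passing), a call lost without day 3 replicate 2 (adjusted p = 0.17, in a range of 0.00044 to 0.17 over 7 alternatives). At day 1 none of the 6 genes passed this edgeR test in KRT24-led cells, with 3.95% of genes passing after adjustment. Before adjustment 3 of them, CLDN1, CLDN7 and F11R, had p-values under 0.05 in that edgeR test (0.0032, 0.0060 and 0.022). The share of all genes under 0.05 before adjustment is not given here, so this count has nothing to be set against.

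In the KRT12/KRT3-led class at day 3, CLDN4 (960.2 and 1067 CPM uninjured, 1437 and 1837 at day 1, 655 and 585 at day 3) and F11R (48.6 and 57.2, 58.0 and 73.8, 39.3 and 30.0) were below uninjured, beside 19.6% of all genes. TJP1 (102 and 101, 199.8 and 174, 153 and 138) was above it, beside 22.8%. The day 3 changes were log2 -0.71 ± 0.11 for CLDN4 (adjusted p = 9.51e-06), log2 -0.61 ± 0.21 for F11R (adjusted p = 0.020) and log2 0.51 ± 0.13 for TJP1 (adjusted p = 0.0021). The F11R call was lost without uninjured replicate 2, without day 3 replicate 2 and at a clustering resolution of 0.8, and the TJP1 call with library totals alone (ranges of 0.00015 to 0.21 over 11 alternatives and 0.00014 to 0.51 over 11 alternatives).

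In the KRT4/KRT19-led class CLDN7 measured 393 and 390.3 CPM uninjured, 1348 and 1418 CPM at day 1 and 385 and 371 CPM at day 3 (log2 1.82 ± 0.11 at day 1, adjusted p = 8.48e-11). CLDN1 measured 206 and 203, then 352 and 332, then 222 and 237 CPM, and OCLN 54.3 and 45.3, then 75.4 and 132, then 40.9 and 37.3 CPM. Day 1 stood apart for all 3, and none was called at day 3.

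CLDN4 in this class measured 882 and 1107 CPM uninjured, 1341 and 1707 CPM at day 1 and 1141 and 1100.3 CPM at day 3. Day 1 was highest, and the day 3 libraries overlapped the uninjured ones (log2 0.17 ± 0.13, adjusted p = 0.30). Its rise at day 1 (log2 0.61 ± 0.13, adjusted p = 0.00064) lost its call with library totals alone (log2 0.17, adjusted p = 0.27, in a range of 1.12e-06 to 0.27 over 11 alternatives). Against the fall in KRT12/KRT3-led cells the day 3 change differed by 0.87 ± 0.10 (adjusted p = 1.03e-11, with 12.6% of genes passing), and the class then held the VMO1/PIP-led cells, the highest in CLDN4. TJP1 (95.1 and 103, then 218 and 228, then 142 and 139.7 CPM) was the 1 gene called at day 3, higher by log2 0.50 ± 0.13 (adjusted p = 0.0041, beside 24.2% of all genes higher), and with library totals alone it was -0.029.

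F11R rose in the KRT4/KRT19-led class from 44.6 and 45.3 to 94.0 and 107 CPM at day 1 (log2 1.151 ± 0.17, adjusted p = 1.49e-05) and was at 50.7 and 45.3 CPM at day 3. In the KRT12/KRT3-led class the day 1 change was log2 0.30 ± 0.17 (adjusted p = 0.14). The 2 changes differed by 0.84 ± 0.23 (adjusted p = 0.0064, with 11.5% of genes passing), a call lost without uninjured replicate 2 (adjusted p = 0.16) or day 1 replicate 1 (0.089), in a range of 0.0056 to 0.16 over 7 alternatives.

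**Figure D4:**
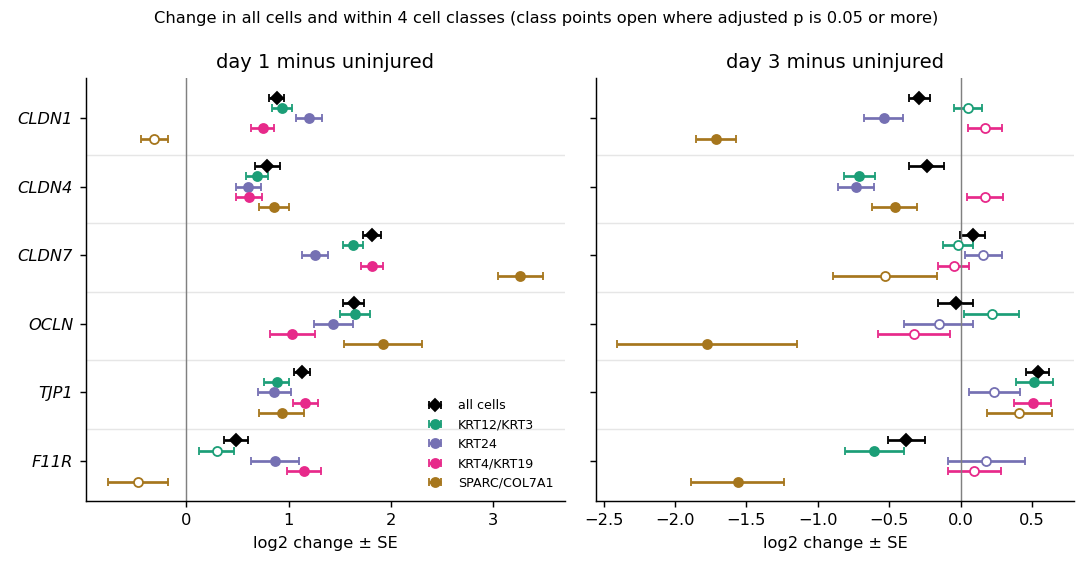
Log2 change from uninjured to day 1 (left) and to day 3 (right) with its SE (x axes) for each gene (rows, y axis) in all cells (diamonds) and in 4 classes (circles, open where the adjusted p was 0.05 or more). In SPARC/COL7A1-led cells CLDN7 stands at 3.27 on day 1 and CLDN1 at -1.71 on day 3, apart from the other classes.

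Across 34 sums of counts, 1 for each cluster and library with at least 30 cells, CLDN4, CLDN7, OCLN and TJP1 ranked the sums alike, with Spearman correlations from 0.89 (CLDN4 with TJP1) to 0.95 (CLDN7 with OCLN). CLDN1 reached 0.62 to 0.71 with the other 5 genes, and F11R 0.55 to 0.71. These points share libraries and depth, so the values are descriptions. Of 3645 genes searched, those most like CLDN7 were LYPD3 (0.95), OCLN (0.95) and LMO7 (0.95). For OCLN they were CLDN7 (0.95), EMP1 (0.94) and LMO7 (0.94), for CLDN4 they included LMO7 (0.94) and CLDN7 (0.94), and for TJP1 CLDN7 (0.94), LYPD3 (0.94) and ST14 (0.94). For CLDN1 they were DAPP1 (0.92), ASPH (0.91) and MLPH (0.91), and for F11R ABHD16A (0.82), WASL (0.81) and MAGI3 (0.79).

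In thinned cells, CLDN4 and CLDN7 were counted in the same cell 1.24 to 1.57 times as often as the product of their shares, over the 6 libraries. Within KRT12/KRT3-led cells the ratio was 0.855 to 1.08. For CLDN1 with CLDN4 it was 1.08 to 1.33 in all cells and 0.956 to 1.103 in KRT12/KRT3-led cells. The excess in all cells was therefore not seen in every library within that cluster.

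In the RefSeq annotation of assembly T2T-MFA8v1.1, OCLN lies next to MARVELD2, and CLDN1 next to CLDN16, while no pair of the 6 genes are neighbours. The neighbours MARVELD2 and CLDN16 were both called higher at day 1, CLDN16 at few counts, as given above. The genome build behind the deposited tables was not given in the sources used here, so no positions are printed.

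Isoform tables used 2 different catalogues of transcripts, and isoforms are compared only within one. In the first (both uninjured libraries and day 1 replicate 1), names carry a class: FSM is a full match to a known transcript, ISM a partial match, NIC a new combination of known splice sites, and NNC has a new splice site. All CLDN4 counts were FSM, and the isoform PB.40967.90 held 94.5% and 95.6% of them uninjured and 94.6% at day 1. For CLDN7 the NNC isoform PB.18116.1050 held 84.98% and 83.0%, then 87.9%. For CLDN1 the NNC isoform PB.36252.12 held 58.4% and 56.4%, then 46.2%, so 1 isoform was the main one for each claudin in all 3 libraries. OCLN had 36 and 59 isoform counts uninjured, too few to describe shares. F11R had none in any library. In the second catalogue (day 1 replicate 2 and both day 3 libraries), where 1234, 701 and 679 barcodes matched those of the gene tables, CLDN1, CLDN7 and OCLN had 1 FSM transcript each, and CLDN4 and TJP1 had no counts.

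TJP1 had 2 main isoforms in the first catalogue, and their order was reversed at day 1. The ISM isoform PB.54168.868 held 67.9% (167 of 246 counts) and 64.9% (211 of 325) uninjured and 29.4% (146 of 497) at day 1. The NNC isoform PB.54168.87 held 30.1% and 29.8%, then 54.7%. The exact (Clopper-Pearson) 95% intervals for PB.54168.868 were 61.7% to 73.7% and 59.5% to 70.1% uninjured and 25.4% to 33.6% at day 1, so the day 1 library lay outside both.

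The same order was seen within clusters. Shares are of isoform counts, which were fewer than the 409 and 487 TJP1 gene counts uninjured and 855 in day 1 replicate 1. PB.54168.868 held 72.7% and 65.7% of TJP1 isoform counts in uninjured KRT12/KRT3-led cells and 36.3% at day 1. It held 79.7% and 75.5%, then 24.2%, in KRT4/KRT19-led cells and 53.8% and 52.9%, then 26.8%, in KRT24-led cells. With 1 day 1 library in this catalogue the difference between days has no replicate check and no test, and that library and day 1 cannot be told apart.

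**Figure D5:**
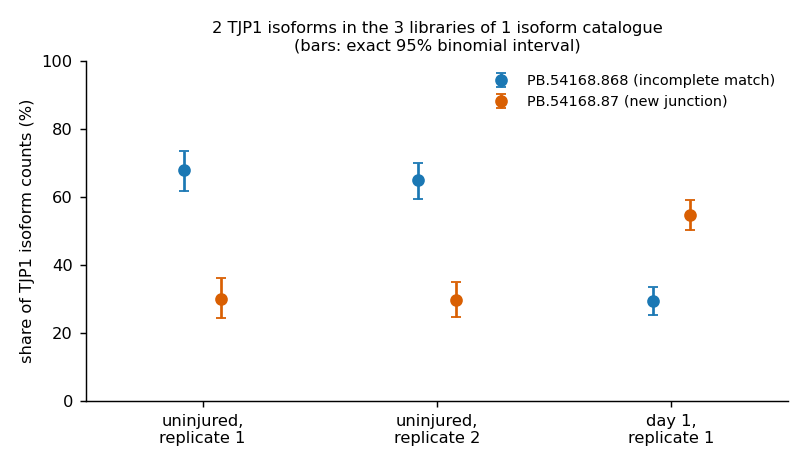
Share of TJP1 isoform counts (y axis, percent) held by 2 isoforms in the 3 libraries of 1 isoform catalogue (x axis), with exact 95% binomial intervals, which cover counting error only. PB.54168.868 goes from 67.9% and 64.9% to 29.4% and PB.54168.87 from 30.1% and 29.8% to 54.7%, in a single day 1 library.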

How the data were processed

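For each library the authors deposited a gene by barcode table and an isoform by barcode table, whose values are whole-number counts per cell. Cell Ranger is named in the submitters' processing notes without a version or role. The aligner, build, annotation, barcode filter and kind of read behind the gene tables were not given in the sources used here. All 7895 barcodes were used. Scrublet called 61 (0.773%) of them doublets, which were left out only as an alternative. Counts were summed per library, or per library and class, and tested with edgeR 4.0.16 in R 4.3.3 (TMM scaling, filterByExpr, quasi-likelihood test over all 6 libraries, threshold 0.05 after Benjamini-Hochberg adjustment). Differences of change between classes were tested in 1 model with library as a term, added after seeing the data. DESeq2 1.42.0 was an alternative.

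Cells of each day were clustered without the junction lists (scanpy 1.11.5, Leiden resolution 0.5, 2000 variable genes, 30 components, 15 neighbours), and clusters were matched between days after their leading genes were seen. The 6 genes and all lists were chosen with earlier results of these data known. Named from each list were up to 4 genes with the largest called change per comparison, any claudin, MARVELD2 and CGN. GRHL2 was named outside this rule, beside GRHL1 and GRHL3. Some genes that this rule names are not reported here. Tests were checked on simulated counts. Intervals on shares cover counting error only.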

Additional observations from a re-analysis of the deposited data

Results flagged for a closer look

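In 36 comparisons of change between classes (6 genes, 3 classes set against KRT12/KRT3-led cells, 2 days), 7 passed edgeR's interaction test. Of all genes tested, 2.77% passed at day 1 and 8.84% at day 3 in SPARC/COL7A1-led cells. In KRT24-led cells 3.95% and 4.63% passed, and in KRT4/KRT19-led cells 11.5% and 12.6%. In SPARC/COL7A1-led cells the log2 change differed by -1.21 for CLDN1 and 1.68 for CLDN7 at day 1, and by -1.74 for CLDN1 and -1.97 for OCLN at day 3. In KRT24-led cells it differed by -0.55 for CLDN1 at day 3. In KRT4/KRT19-led cells it differed by 0.84 for F11R at day 1 and 0.87 for CLDN4 at day 3. The call for OCLN, made at an adjusted p of 0.042 with edgeR, was lost without uninjured replicate 1 (0.090) or 2 (0.22) and without day 3 replicate 1 (0.16) or 2 (0.22), in a range of 0.038 to 0.22 over 7 alternatives. The CLDN7 difference at day 1, both CLDN1 differences in SPARC/COL7A1-led cells and the CLDN4 difference kept their calls in all 7 alternatives run, and the CLDN1 difference in KRT24-led cells and the F11R difference lost theirs as given above.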

How the results depend on the processing

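With library totals alone the day 3 differences from uninjured were -0.66 for CLDN4, -0.34 for CLDN7, -0.46 for OCLN and 0.12 for TJP1 (log2), and F11R at day 1 was 0.15. Of the 6 genes 0 were then higher and 5 lower at day 3, and 4 were called in each of the KRT24-led and KRT4/KRT19-led classes, where TJP1 was -0.029 in the latter. Of the wider lists 20 were lower at day 1, and 11 were higher and 26 lower at day 3. Under this scaling the median change of all genes was log2 -0.40 at day 1 and -0.46 at day 3. The share of all genes called with it is not given here, so these counts cannot be read as particular to junction genes. With DESeq2 F11R was 0.50 at day 1 and -0.37 at day 3, 1 of the 6 genes was lower at day 3, and of the wider lists 6 were lower at day 1 and 18 lower at day 3 than at day 1. DESeq2 called 4623, 3569 and 4295 genes in the comparisons of day 1 with uninjured, day 3 with uninjured and day 3 with day 1, where edgeR called 7646, 6792 and 7294. With each cell weighted equally the day 1 values were 0.64 for CLDN1, 0.92 for TJP1 and -0.026 for F11R, and the day 3 values -0.61 for CLDN1, -0.045 for CLDN7, 0.28 for TJP1 and -0.86 for F11R. Without the FN1/COL1A1-led cells OCLN was 0.058 at day 3. Thinned shares were above uninjured in both libraries for 3 genes at day 1 with 2000 counts per cell and for 0 at day 3 with 500. The causes were not tested.

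Leaving out 1 library gave day 3 values of -0.30 to -0.28 for CLDN1, -0.37 to -0.093 for CLDN4, -0.11 to 0.036 for OCLN and -0.48 to -0.29 for F11R, with 1 to 3 of the 6 genes lower and 2 to 4 called in the SPARC/COL7A1-led class. A group left with 1 library was taken to vary like the others. Depth limits OCLN and F11R most, with 123 to 427 and 146 to 304 counts in a library. The KRT24-led class gave no value at a clustering resolution of 0.3. Same-numbered libraries hardly deviated together (correlations of 0.0303, 0.05001 and 0.0209 across genes). Counting noise lowers such correlations, so they cannot show whether the numbers pair the samples. With a replicate block the calls of the 6 genes were the same in number (6 higher at day 1, 1 higher and 2 lower at day 3), and CLDN7 was 1.82 at day 1.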
